A study of Capra hircus with 40 samples.

Results

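Elastic fibre genes are described here in the whole uterus and whole ovary of the growing female goat. They are 10 genes of the 30049 in the count table, chosen by goat RefSeq symbol: elastin (ELN), lysyl oxidase (LOX), fibrillins 1 and 2 (FBN1, FBN2), microfibril-associated protein 4 (MFAP4), latent TGF-beta binding protein 2 (LTBP2), fibulins 5 and 1 (FBLN5, FBLN1) and emilins 1 and 3 (EMILIN1, EMILIN3). In the order just given their NCBI gene numbers are 102169447, 102169472, 102180397, 102173553, 102190636, 102183880, 102187898, 102177315, 102180604 and 102182704. All 10 were found, and all 10 passed the filter on low counts in both organs. The series sequenced total RNA of untreated female Jining gray goats at day 1 and at months 2, 4 and 6. Each organ and age held 5 libraries, which gives 8 groups and 40 libraries. The labels number the individuals within each group and do not say whether an ovary and a uterus with the same number came from the same goat. Both organs were taken whole, so each library mixes stroma, muscle, vessels, epithelium and, in the ovary, follicles. In such bulk samples fewer cells of a type and less RNA per cell cannot be told apart.

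Elastic fibres give soft tissues their recoil. Cells secrete fibrillin, which assembles into microfibrils, and elastin is laid down on that scaffold as its soluble precursor tropoelastin. Fibulins and emilins bind elastin and the microfibrils and help to place the one on the other, and lysyl oxidase cross-links the elastin into a durable polymer. Microfibrils also hold latent growth factors of the TGF-beta family. Elastin is made mostly around birth and in early growth, fibrillin 2 is known as the fibrillin of fetal tissue, and in the uterus elastic fibres lie in the muscle wall, the cervix and the vessel walls. Among the members, ELN is the elastic core, LOX the cross-linking enzyme, FBN1 and FBN2 the scaffold, and MFAP4 and LTBP2 proteins attached to the scaffold. FBLN5 and FBLN1 are fibulins, of which FBLN5 brings elastin to microfibrils in mice, and EMILIN1 and EMILIN3 are glycoproteins of the elastin and microfibril interface and of other matrices.

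Library totals ran from 31.9 to 62.7 M counts, and the lowest count of any member in any library was 70, for EMILIN3. Levels are CPM (a gene's share of its library's counts, scaled to one common total) after TMM scaling over all 40 libraries. CPM is not divided by transcript length, so levels are compared between libraries for 1 gene and not between genes. A gene is called changed when edgeR's quasi-likelihood test gives a Benjamini-Hochberg adjusted p under 0.05 over all genes tested and the log2 fold change is at least 1 in size.

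A pair of libraries went against their labels and touches most members. Library 5 of the uterus at month 4 had all 8 genes of a uterus marker list below every other uterus library, with a summed level of 182.3 CPM against 708.3 to 2227 CPM. Its 5 epithelial markers were also all below the others. Fibroblast markers summed to 102700 CPM there against at most 28200 CPM elsewhere in the uterus (5 of 6 above every other library), and smooth muscle markers to 10720 CPM against at most 5319 CPM (6 of 7 above). Endothelial markers summed to 1584 CPM against at most 686.7 CPM (5 of 6 above), and 3 of 6 nerve and Schwann cell markers were above every other library, with a sum within the range. Library 3 of the ovary at day 1 had 6 of 7 ovary markers below every other ovary library, with a sum of 2.911 CPM against at least 113.7 CPM. Its adipocyte markers summed to 3530 CPM against at most 4.314 CPM, with 5 of 5 measured markers above the other ovary libraries. Its urothelium markers summed to 894.1 CPM against at most 560.3 CPM, with 3 of 4 above, among them UPK1A at 168.9 CPM against at most 2.069 CPM and UPK3A at 174.7 CPM against at most 3.455 CPM. Library 5 of the ovary at month 4 also differed from the other ovaries, with 15.2% of 18499 genes above and 13.9% below all of them, against 11.3% and 11.7% for day 1 library 3. Its endothelial markers summed to 1601 CPM against at most 981.1 CPM (4 of 6 above), while 1 of its 7 ovary markers was below the others and their sum of 154.7 CPM was within the range. Those others include day 1 library 3, which had 0 CPM of the ovary marker ZP3. Outside that library the lowest ZP3 level was the 1.97 CPM of month 4 library 5. What tissue these libraries hold was not tested. The calls that the first pair changes are given with and without them.

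**Figure D1:**
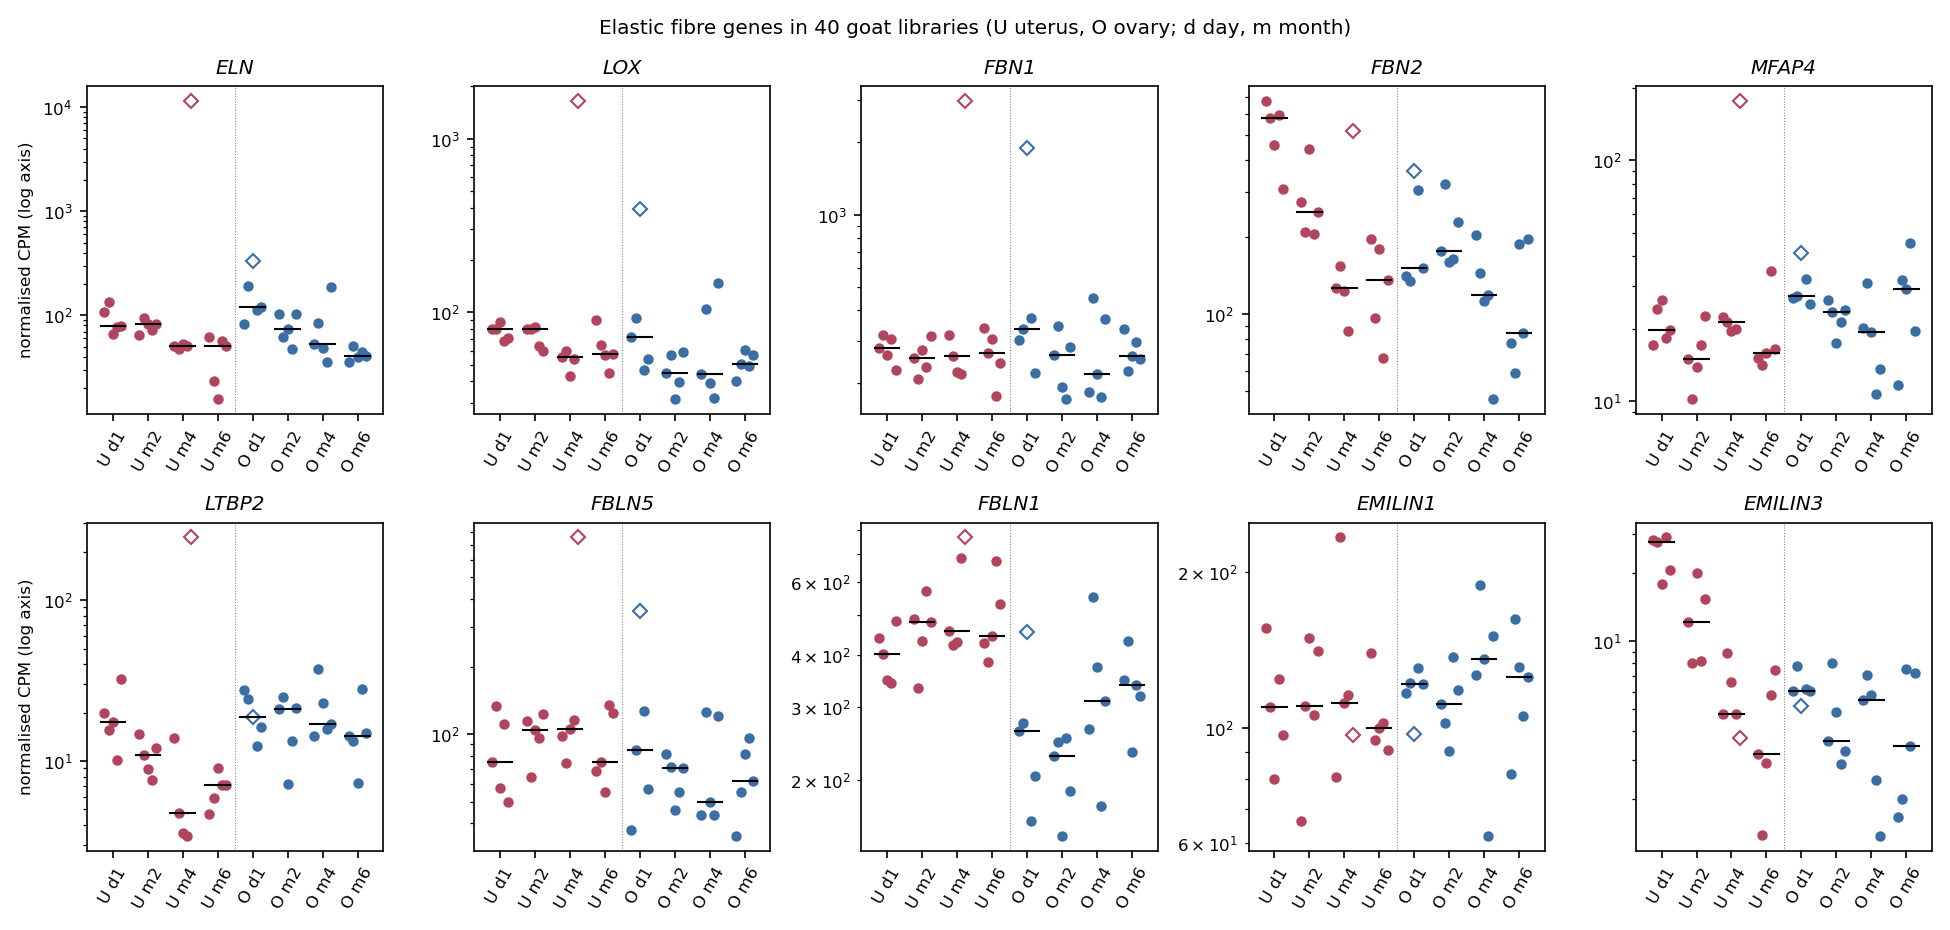
Each panel plots 1 gene, with normalised CPM on a log axis for every library by group (U uterus, O ovary, d day, m month), black bars at group medians, and open diamonds for uterus month 4 library 5 and ovary day 1 library 3. In the uterus EMILIN3 steps down with age and FBN2 is lower at months 4 and 6 than at day 1 but for the diamond, in the ovary the medians of ELN step down, and the uterus diamond lies above all other uterus libraries for 7 of the 10 genes.

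The scaffold and interface genes FBN2 and EMILIN3 fell in the uterus between day 1 and month 6. EMILIN3 had 28.14, 27.48, 17.96, 28.86 and 20.71 CPM in the 5 uterus libraries of day 1, and 12.14, 8.028, 20.13, 8.171 and 15.45 CPM at month 2. It had 4.754, 8.852, 6.594, 4.792 and 3.74 CPM at month 4, and 3.163, 1.392, 2.899, 5.817 and 7.487 CPM at month 6. The group medians fell at every step, and the highest library of month 6 lay below the lowest of day 1. The group mean went from 24.63 ± 4.954 CPM (SD, n = 5) to 4.152 ± 2.453 CPM (SD, n = 5), a log2 fold change of -2.58 ± 0.387 (SE, adjusted p = 0.00604). Month 4 library 5 stayed within the range of the other uterus libraries for EMILIN3, and without it the adjusted p was 0.00323.

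FBN2, the fibrillin best known from fetal tissue, had 677, 581.1, 456.8, 597.4 and 307.1 CPM in the uterus at day 1. At month 2 it had 272.3, 209.5, 438.4, 205.3 and 250.8 CPM. At month 4 it had 126.5, 154.2, 123, 86.3 and 515.5 CPM. At month 6 it had 196.8, 96.65, 180.2, 67.63 and 136.3 CPM. The day 1 libraries were all above the month 6 libraries, while the 515.5 CPM of month 4 library 5 reached the level of day 1. The mean went from 523.9 ± 144.6 CPM (SD, n = 5) to 135.5 ± 54.49 CPM (SD, n = 5), a log2 fold change of -1.97 ± 0.43 (SE, adjusted p = 0.0296), and the adjusted p was 0.00323 without month 4 library 5. The call was lost, with adjusted p between 0.0543 and 0.0813, when day 1 library 1, 2 or 3 or month 6 library 2 or 4 was left out alone. EMILIN3 stayed called when each library of day 1 and month 6, and month 4 library 5, was left out in turn, at adjusted p from 0.00268 to 0.0188.

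These were 2 of the 10 members called over that interval, both lower, where 0.756% of the 18789 genes tested were called lower and 1.42% in either direction. Without month 4 library 5 the count was 4 of 10, all lower, beside 1.38% of all genes called lower. The additional members were ELN and LTBP2. The median log2 fold change of the 10 members was -0.24, beside 0.01 over all genes tested.

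ELN, the elastic core, had 108.1, 133.6, 66.87, 77.24 and 79.11 CPM in the uterus at day 1. At month 6 it had 61.9, 23.2, 15.61, 56.47 and 51.01 CPM. The groups did not overlap, and libraries 2 and 3 of month 6 were the lowest uterus libraries of all for this gene. The log2 fold change was -1.18 with a standard error of 1.16 when all 20 uterus libraries set the spread (adjusted p = 0.643). It was again -1.18, with a standard error of 0.292, when month 4 library 5 was left out (adjusted p = 0.0361). In a fit of the day 1 and month 6 libraries alone the adjusted p was 0.177, and leaving out any single library of day 1 or month 6 gave an adjusted p up to 0.767.

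LTBP2, which binds fibrillin and, unlike its relatives, does not bind latent TGF-beta, had 19.92, 15.62, 17.34, 10.12 and 32.11 CPM at day 1 in the uterus. It had 4.678, 5.916, 8.981, 7.057 and 7.035 CPM at month 6. Here too the groups did not overlap. The log2 fold change was -1.53 with a standard error of 0.889 over all libraries (adjusted p = 0.388) and 0.375 without month 4 library 5 (adjusted p = 0.0347). With the day 1 and month 6 libraries alone the adjusted p was 0.0644, and it reached 0.558 when single libraries were left out. ELN, FBN2, LTBP2 and EMILIN3 were thus the 4 members without overlap between the ages, all lower at month 6, beside 2.09% of the 15665 genes with a mean of at least 1 CPM in the uterus.

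The other 6 members were not called over these months in the uterus. LOX had between 68.15 and 87.81 CPM at day 1 and between 44.9 and 90.63 CPM at month 6. FBN1, the fibrillin that persists in adult tissue, had 226.1 to 317 CPM at day 1 and 176.8 to 338.4 CPM at month 6. FBLN1 had 342.4 to 484.2 CPM and then 385.6 to 673.8 CPM, and FBLN5 50.05 to 133.2 CPM and then 55.23 to 134.4 CPM. MFAP4 ran from 17.17 to 26.23 CPM and then from 14.06 to 34.82 CPM, and EMILIN1 from 79.94 to 156.1 CPM and then from 90.85 to 139.5 CPM. The ages overlapped for each of these 6 genes, and their adjusted p lay between 0.545 and 0.959 with all libraries and between 0.276 and 0.899 without month 4 library 5.

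**Figure D2:**
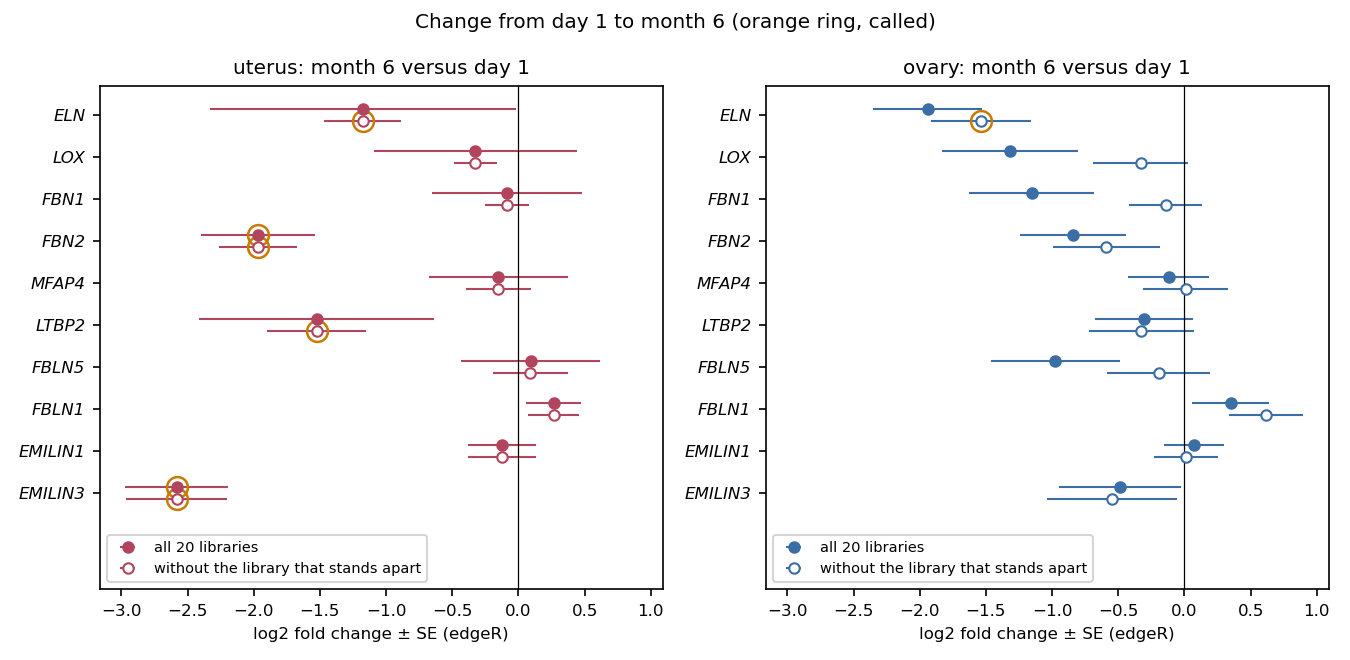
The log2 fold change from day 1 to month 6 is plotted for each gene with its standard error, for the uterus and the ovary, from all 20 libraries of the organ (filled) and without the library that stands apart (open), with orange rings around called changes. In the uterus the open and filled points coincide, with shorter bars on the open points of ELN, LOX and LTBP2, while in the ovary LOX, FBN1 and FBLN5 lie nearer to 0 without day 1 library 3.

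Markers of nerve and Schwann cells moved with these genes in the uterus. Their summed level was 47.69 to 470.6 CPM at day 1 and 9.686 to 40.27 CPM at month 6, and 3 of the 6 markers were lower at month 6 without overlap. The tendon and cartilage lists had 1 such marker each of 7 and 6. The smooth muscle, fibroblast, endothelial and epithelial lists had 0 markers without overlap in the lower direction, with fibroblast markers summing to 11840 to 20680 CPM at day 1 and 4754 to 28200 CPM at month 6. The part of any of these cell types in the fall of EMILIN3 and FBN2 was not tested.

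No member was called between neighbouring uterus ages. From day 1 to month 2, 0 of 10 members were called (lowest adjusted p 0.311, beside 0.016% of all genes). The mean of FBN2 was 523.9 CPM at day 1 and 275.3 CPM at month 2, and that of EMILIN3 24.63 CPM and 12.78 CPM. Between months 2 and 4 and between months 4 and 6, 0 members and 0% of all genes were called, where the unadjusted p was below 0.05 for 1244 and 2028 genes. In those intervals month 4 library 5 changed the sign of some member values. Without it ELN, LOX, FBN1, LTBP2 and FBLN5 changed sign from month 2 to month 4. LOX, FBN1, FBN2 and LTBP2 did so from month 4 to month 6. MFAP4 kept its sign in both intervals, as did FBN2 in the earlier and ELN and FBLN5 in the later. ELN had a log2 fold change from month 2 to month 4 of 4.89 with that library and -0.67 without it, and neither was called. Without it, ELN, LOX and FBN2 were lower at month 4 than at month 2 with no overlap, beside 1.32% of genes. ELN had 50.78, 47.27, 52.85 and 51.35 CPM in those 4 libraries of month 4 against 64.99 to 95.16 CPM at month 2.

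Within a library the balance of the paired family members shifted with age in the uterus. The ratio of FBN2 to FBN1 counts was 2.41, 1.83, 1.74, 1.97 and 1.36 at day 1, with a median of 1.83. Its median was 1.01 at month 2, with a range of 0.798 to 1.6. It was 0.399, 0.598, 0.553 and 0.397 in libraries 1 to 4 of month 4, and 0.174 in library 5. At month 6 it lay between 0.363 and 0.593. The day 1 and month 2 libraries were thus all above those of months 4 and 6. In the ovary the medians of this ratio were 0.467 at day 1, or 0.578 without library 3, and 0.823, 0.519 and 0.286 at the later ages, with overlapping ranges. Since the counts are not divided by transcript length, a ratio of 1 does not mark equal numbers of molecules.

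The ratio of EMILIN3 to EMILIN1 counts had medians of 0.225, 0.11, 0.0414 and 0.029 in the uterus from day 1 to month 6, with every library of day 1 between 0.18 and 0.25. The month 4 median was 0.0501 without library 5. The ovary medians were 0.0515 at day 1, or 0.0506 without library 3, and 0.0326, 0.0392 and 0.0326 at the later ages. Library 1 of month 2, at 0.183, was the one later uterus library that entered the day 1 range. These ratios were chosen after the levels had been seen and carry no test.

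**Figure D3:**
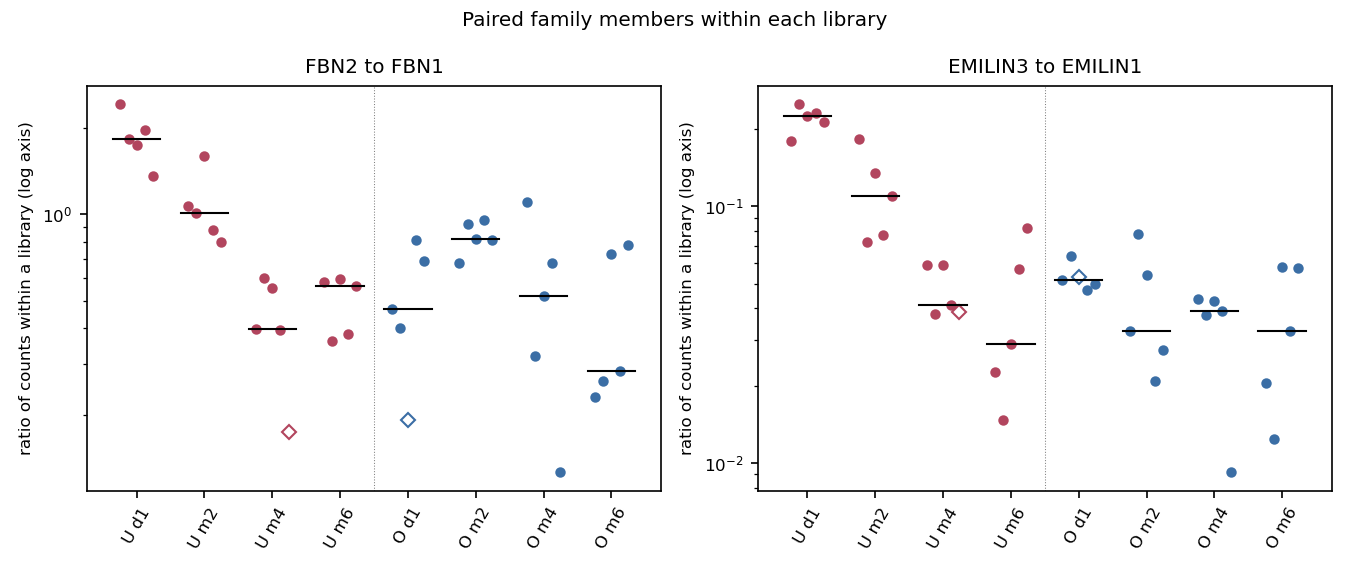
The ratio of FBN2 to FBN1 counts and of EMILIN3 to EMILIN1 counts is plotted for every library on log axes, by group as named in the plot of members by library, with medians as black bars and open diamonds for the libraries that stand apart. In the uterus both ratios are higher in every library of day 1 than in any of months 4 and 6, while day 1 and month 6 overlap in the ovary.

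In the ovary ELN was the only member without overlap between day 1 and month 6, and its neighbouring ages overlapped. It had 82.62, 191.9, 330.5, 111.6 and 120.1 CPM at day 1, a mean of 167.3 ± 99.68 CPM (SD, n = 5), or 126.5 ± 46.43 CPM (SD, n = 4) without library 3. The mean was 77.97 ± 24.62 CPM (SD, n = 5) at month 2. At month 4 the libraries had 52.64, 84.97, 48.91, 35.87 and 187.3 CPM, a mean of 81.94 ± 61.62 CPM (SD, n = 5), or 55.6 ± 20.86 CPM (SD, n = 4) without library 5. At month 6 they had 35.9, 50.62, 40.24, 44.19 and 40.29 CPM, all below the lowest library of day 1, beside 0.896% of genes that were lower without overlap. The spread at month 6, 42.25 ± 5.521 CPM (SD, n = 5), was the narrowest of the 4 ovary ages. Group medians fell at every step, from 120.1 CPM, or 115.8 CPM without day 1 library 3, to 74.36, 52.64 and 40.29 CPM.

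From day 1 to month 6 the log2 fold change of ovarian ELN was -1.94 ± 0.414 (SE), and with an adjusted p of 0.0705 it was not called. All 20 ovary libraries gave 0 of 10 members called, beside 0.0763% of the 19671 genes tested. Without day 1 library 3 the log2 fold change was -1.54 ± 0.378 (SE, adjusted p = 0.0458), which was called, and 1 of 10 members stood beside 1.44% of all genes called lower. Leaving out single libraries gave adjusted p from 0.0424 to 0.156, with another call without day 1 library 4, and DESeq2 called it over all libraries (adjusted p = 0.000584). LOX, FBN1 and FBLN5 were not called in the ovary with or without day 1 library 3. Their log2 fold changes from day 1 to month 6 were -1.32, -1.16 and -0.98 with it and -0.33, -0.14 and -0.20 without it. LOX had 393.3 CPM there against 46.73 to 92.46 CPM in the other day 1 ovaries, FBN1 1889 CPM against 220.4 to 373.1 CPM, and FBLN5 355.5 CPM against 37.36 to 126.9 CPM.

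FBN2 and EMILIN3 were not called from day 1 to month 6 in the ovary, though both medians were lower at month 6. The medians of FBN2 were 151.8, 176.5, 118.4 and 84.33 CPM at the 4 ages, and those of EMILIN3 6.052, 3.632, 5.509 and 3.436 CPM. FBN2 had 141, 134.1, 362.1, 303.8 and 151.8 CPM at day 1 and 77.25, 58.81, 187.8, 84.33 and 195.7 CPM at month 6, with overlap. At months 2 and 4 FBN2 ran from 159 to 320.2 CPM and from 46.59 to 203.1 CPM. EMILIN3 had means of 6.248 ± 0.961, 4.529 ± 2.081, 4.449 ± 2.427 and 4.39 ± 2.844 CPM (SD, n = 5 each) at the 4 ages. Their adjusted p from day 1 to month 6 was 0.351 and 0.69, or 0.519 and 0.645 without day 1 library 3. MFAP4 had 10.66 to 45.43 CPM over all 20 ovaries, LTBP2 7.161 to 37.5 CPM, FBLN1 146.4 to 552.8 CPM and EMILIN1 62.04 to 188.5 CPM. Each of these 4 had overlapping ages between day 1 and month 6. In the steps between neighbouring ages 0 members were called in the ovary, with all genes called at 0.00508% from day 1 to month 2 and 0% in the later steps, where the unadjusted p was below 0.05 for 1751 and 520 genes.

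The organs were compared at each age to ask which elastic fibre genes mark the uterus against the ovary. EMILIN3 and FBN2 were higher in the uterus at day 1, and EMILIN3 and FBLN1 at month 2. At day 1 the 5 uteri had 17.96 to 28.86 CPM of EMILIN3 and the 5 ovaries 5.195 to 7.824 CPM, with no overlap, as for 4.05% of genes that were higher in the uterus. The log2 fold change was 1.98 ± 0.438 (SE, adjusted p = 0.00148). FBN2 was 307.1 to 677 CPM in the uteri and 134.1 to 362.1 CPM in the ovaries, a log2 fold change of 1.26 ± 0.427 (SE, adjusted p = 0.0353). That overlap came from ovary library 3, without which the highest ovary had 303.8 CPM and the log2 fold change was 1.52 (adjusted p = 0.0142). The FBN2 call was lost, at adjusted p between 0.0624 and 0.0941, without ovary day 1 library 1, 2 or 5 or uterus day 1 library 1, 2 or 4. These 2 of 10 members, both higher, compare with 3.94% of the 20518 genes called higher in the uterus at day 1 and 14.2% called in either direction. Without both libraries that stand apart the same members were called, beside 6.37% called higher. Without uterus month 4 library 5 alone FBN1 was also called, lower in the uterus (log2 fold change -1.16, adjusted p = 0.0234, beside 10.5% called lower), and without both libraries its log2 fold change was -0.093. FBLN1, not called at day 1 with all libraries or without both, had 342.4 to 484.2 CPM in the uteri. The ovaries had 455.5 CPM in library 3 and 158.7 to 274 CPM in the others.

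At month 2 the EMILIN3 difference was 1.5 ± 0.433 on the log2 scale (SE, adjusted p = 0.0126), with uteri at 8.028 to 20.13 CPM and ovaries at 2.87 to 8.003 CPM. FBLN1, a fibulin of basement membranes and elastic fibres, had 489.4, 333.7, 431.4, 570.7 and 479.6 CPM in the uterus and 228.4, 247.2, 146.4, 252 and 187.6 CPM in the ovary. It differed by 1.12 ± 0.256 on the log2 scale (SE, adjusted p = 0.00197), and LOX, FBLN1 and EMILIN3 did not overlap between the organs. The 2 members called stand beside 6.5% of all genes called higher and 16.3% called in either direction, and the 3 without overlap beside 12.5% of genes that were higher in the uterus without overlap.

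At month 4 the members called in the organ comparison turned on uterus library 5. With all libraries ELN (log2 fold change 4.83, adjusted p = 0.00209), LOX (2.33, adjusted p = 0.0242), MFAP4 (1.45, adjusted p = 0.0268) and FBLN5 (1.58, adjusted p = 0.0435) were called higher in the uterus, 4 of 10 beside 4.22% of all genes called higher and 11.1% called in either direction. Without uterus month 4 library 5 the log2 fold changes were -0.72 for ELN, -0.50 for LOX, 0.11 for MFAP4 and 0.34 for FBLN5, and 0 of these 4 were called. Ovary month 4 library 5, still in that fit, had 187.3 CPM of ELN and 148.3 CPM of LOX. The other ovaries of that age had 35.87 to 84.97 and 32.15 to 104.3 CPM. Without library 5 of either organ the month 4 means of ELN were 50.56 CPM in the uterus and 55.6 CPM in the ovary. Those of LOX were 52.86 and 55 CPM. Without uterus month 4 library 5 alone LTBP2 was called lower in the uterus, with 13.91, 4.737, 3.543 and 3.42 CPM against 14.26, 37.5, 22.85, 15.72 and 17 CPM in the ovary. Its log2 fold change was -1.78 ± 0.42 (SE, adjusted p = 0.00443), 1 of 10 members beside 7.7% of all genes called lower. With neither library that stands apart its groups did not overlap, as for 5.55% of genes that were lower in the uterus.

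At month 6, 0 of 10 members were called between the organs with all libraries, beside 10.1% of all genes, with a lowest adjusted p of 0.164, for FBLN1. The unadjusted p was below 0.05 for 4913 genes. Without uterus month 4 library 5 LTBP2 was called lower in the uterus (log2 fold change -1.21 ± 0.382, SE, adjusted p = 0.0323), beside 6.31% of all genes called lower. Leaving out single libraries gave LTBP2 adjusted p from 0.0323 to 0.549. EMILIN3, which had marked the uterus at day 1, had 1.392 to 7.487 CPM in the uterus and 1.668 to 7.586 CPM in the ovary. The difference between the organs in the change from day 1 to month 6 was not called for any member, beside 0.234% of all genes, while the unadjusted p was below 0.05 for 2270 genes. For EMILIN3 it was -2.06 ± 0.606 on the log2 scale (SE, adjusted p = 0.126, and 0.0748 to 0.248 without single libraries), and DESeq2 called it (adjusted p = 0.0348).

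**Figure D4:**
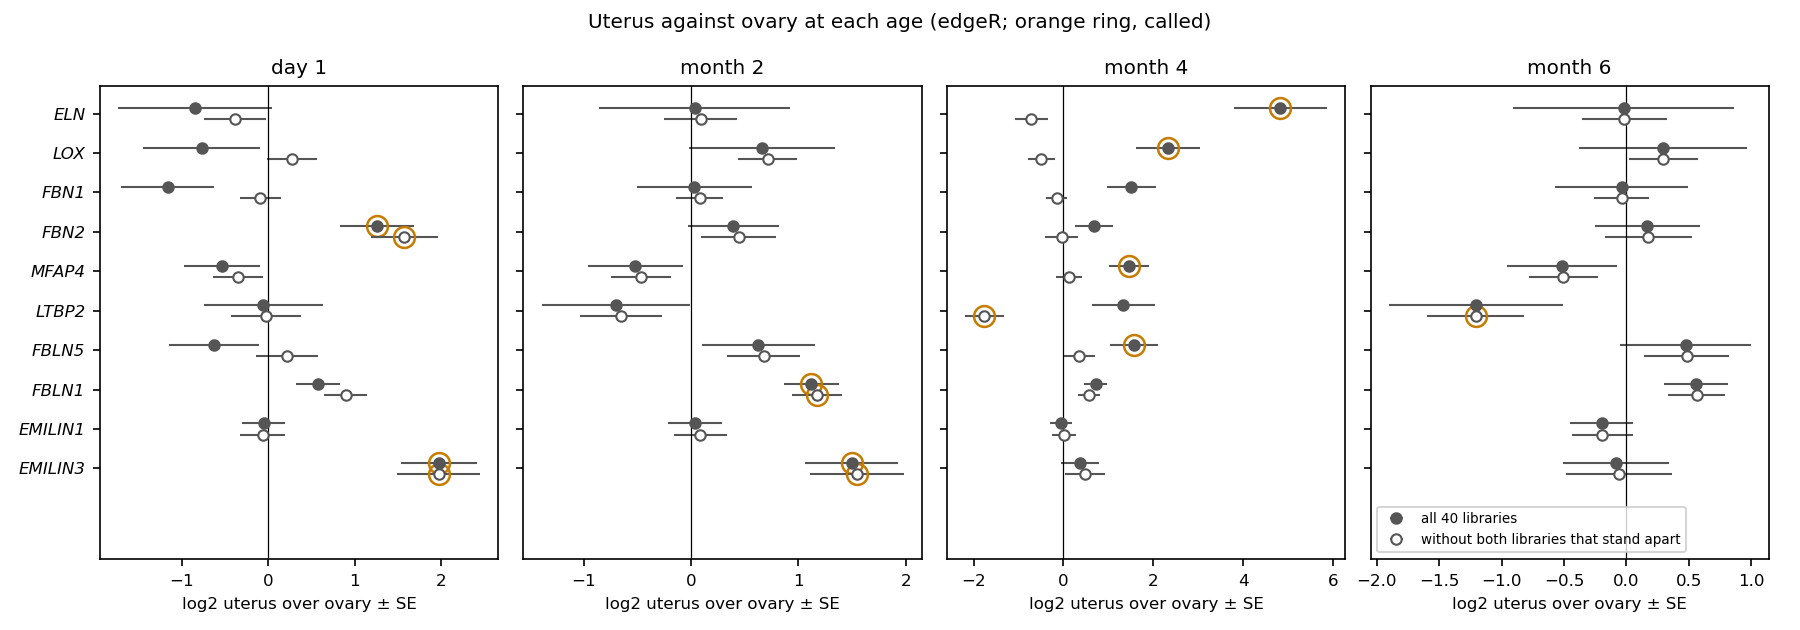
The log2 fold change of uterus over ovary is plotted for each gene at each age with its standard error, from all 40 libraries (filled) and without both libraries that stand apart (open), with orange rings around called differences and a separate scale in each panel. EMILIN3 is ringed at day 1 and month 2, and at month 4 the filled and open points of ELN, LOX, FBN1, FBN2 and LTBP2 lie on opposite sides of 0.

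The elastic fibre genes of uterus month 4 library 5 were themselves extreme. ELN had 11470 CPM there against 47.27 to 52.85 CPM in the other 4 libraries of its group. That was 0.933% of all counts of the library and 225 times the median of the other 4, and 85.9 times the highest other uterus library. Ranked by the rise over the highest other uterus library, ELN was number 2 of the 30049 genes. LTBP2 was 59.3 times its group's median, LOX 30.2 times, FBN1 12.3 times, MFAP4 8.58 times and FBLN5 7.4 times. FBLN1, at 768.2 CPM, was the seventh member above every other uterus library, by a factor of 1.12.

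FBN2, EMILIN1 and EMILIN3 stayed within the range of the other 19 uterus libraries in that library. EMILIN3 had 3.74 CPM, below the other 4 of its group, and EMILIN1 97.03 CPM. Of 58 other genes of elastic fibre assembly, cross-linking, regulation and breakdown found in the table, 36 were above every other uterus library there and 0 below, against 13.2% above and 13.3% below over 17822 genes. HOXA10, a homeobox gene of uterine identity, had 3.185 CPM against 29.48 to 105.4 CPM. Tendon and ligament markers summed to 467.2 CPM there against at most 226.9 CPM in the other uterus libraries. Of these 7 markers 1 was above every other uterus library, FMOD, at 404.8 CPM against at most 74.33 CPM, and 0 were below. Cartilage markers, at 42.35 CPM, were within the range, with 2 of 6 above. Adipocyte markers summed to 3.571 CPM there against at most 2.576 CPM, with 1 of 5 above every other uterus library, and skeletal muscle markers to 5.092 CPM, within the range of the others, with 1 of 4 above. Urothelium markers, at 7.867 CPM, were below the other libraries, which had at least 20.79 CPM, and ovary markers summed to 1.52 CPM, within their range.

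Ovary day 1 library 3 had 5 of the 10 members above every other ovary library: ELN, LOX, FBN1, FBN2 and FBLN5. Of the 58 pathway genes 12 were above and 2 below, beside 11.3% above and 11.7% below over 18499 genes. ELN had 330.5 CPM, 2.85 times the median of its group, and LOX 6.23 times, FBN1 5.94 times and FBLN5 5.01 times. MFAP4, LTBP2, FBLN1, EMILIN1 and EMILIN3 stayed within the range. Smooth muscle markers summed to 3877 CPM there against at most 2382 CPM and fibroblast markers to 48940 CPM against at most 18170 CPM. FBN2 was 2.47 times its group's median there, and 4.13 times in uterus month 4 library 5, below the factor of FBN1 in each.

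**Figure D5:**
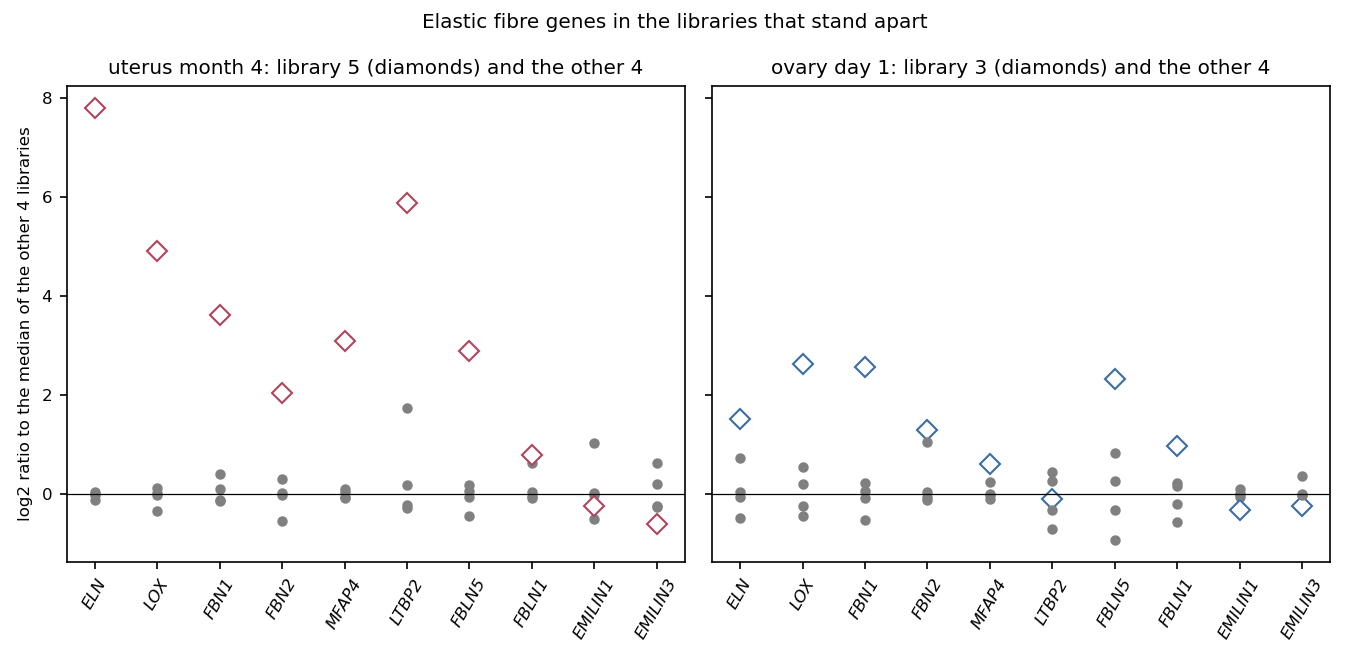
For uterus month 4 and ovary day 1 the log2 ratio of each library to the median of 4 libraries of its group is plotted, with library 5 and library 3, left out of that median, as open diamonds and the 4 as grey points. In the uterus the diamond is highest for ELN and LTBP2 and below 0 for EMILIN1 and EMILIN3, and in the ovary it is highest for LOX and FBN1.

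The genes most like ELN, FBN2 and EMILIN3 were sought over the 19 libraries of an organ without the one that stands apart, by Pearson's r of log2 CPM. These correlations share libraries, age and depth, are descriptions and carry no test. In the uterus ELN was most like PTN (r = 0.927), KANK4 (0.871) and COL21A1 (0.839) among 15635 genes. FBN2 was most like DIAPH3 (0.921), COL26A1 (0.899) and CKAP2 (0.893), and EMILIN3 like UCHL1 (0.952), KCNA6 (0.92) and EPHB2 (0.916). UCHL1 is also 1 of the 6 nerve markers named above and went from 19.67 to 32.35 CPM at day 1 to 2.185 to 10.06 CPM at month 6. Among members in the uterus, EMILIN3 had r = 0.823 with FBN2 and 0.8 with ELN, and ELN had 0.605 with FBN2.

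In the ovary, among 16011 genes, ELN was most like LRRC4B (0.888), GLMP (0.834) and ADAMTS12 (0.831). FBN2 was most like CDK6 (0.886), FBXO5 (0.885) and ARHGEF28 (0.884). EMILIN3 was most like LOC106502426 (0.807), BLM (0.806) and CRMP1 (0.796). FBN2 and EMILIN3 again ran together, with r = 0.721, while ELN had r = 0.012 with FBN2 and 0.092 with EMILIN3. LOX was closer to FBN2 in the uterus (r = 0.724) than in the ovary (r = -0.246), a difference that was not tested. Library 5 of the ovary at month 4 had the lowest level of both FBN2, at 46.59 CPM, and EMILIN3, at 1.379 CPM, of all ovary libraries, and it is among the 19 libraries of these correlations.

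The rest of the pathway was followed with a list of 59 further genes, of which 56 were tested in each organ. From day 1 to month 6 in the uterus 0 rose and 1 fell, FBN3, the remaining fibrillin, with 18.46, 15.44, 1.415, 11.82 and 1.083 CPM at day 1 and 0.132, 0.0193, 1.54, 0.32 and 0.617 CPM at month 6. Its log2 fold change was -4.19 ± 1.03 (SE, adjusted p = 0.0459), libraries 3 and 5 of day 1 overlapped month 6, and the call was lost when any of day 1 libraries 1 to 4 or month 6 libraries 1, 2, 4 or 5 was left out. Without month 4 library 5, 3 rose and 1 fell. The elastase MMP7 rose by 3.52 ± 0.811 (SE, adjusted p = 0.0275), the lysyl oxidase relative LOXL4 by 2.58 ± 0.616 (SE, adjusted p = 0.0315) and decorin, DCN, by 1.25 ± 0.307 (SE, adjusted p = 0.0347), all on the log2 scale. FBN3 again fell. Leaving out single libraries gave adjusted p up to 0.15 for MMP7, 0.224 for LOXL4 and 0.194 for DCN. At month 6 MMP7 had 1668 and 3849 CPM in libraries 1 and 2 and 233.6 to 524.2 CPM in the others. LOXL4 had 25.37 CPM in library 2 and 2.559 to 8.38 CPM in the others. In every other comparison within an organ 0 of 56 were called, with and without the library that stands apart.

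Between the organs 57 pathway genes were tested. At day 1, 1 was higher in the uterus and 7 lower, at month 2, 10 and 8, at month 4, 5 and 6, and at month 6, 3 and 5, beside 14.2%, 16.3%, 11.1% and 10.1% of all genes called in either direction at these ages. Without both libraries that stand apart the counts were 7 and 6, 12 and 8, 4 and 8, and 5 and 5. HMCN1, hemicentin of the fibulin family, was lower in the uterus at all 4 ages, with log2 fold changes of -3.44, -3.02, -1.47 and -2.10 (adjusted p at most 0.00132). MMRN1, of the emilin and multimerin family, and ADAMTSL2, which binds microfibrils, were lower at day 1, month 2 and month 6, with log2 fold changes between -3.35 and -2.28. At month 4 uterus library 5 had 214 CPM of MMRN1 and 21.26 CPM of ADAMTSL2. The other uteri of month 4 had 36.46 to 56.39 CPM of MMRN1, and the ovaries 138.9 to 283.3 CPM. For ADAMTSL2 these ranges were 0.787 to 1.92 CPM and 3.8 to 10.27 CPM. ADAMTSL3 was higher at months 2, 4 and 6, by 3.91, 3.11 and 2.76, and ITGB3, an integrin chain, at months 4 and 6, by 1.89 and 1.69. At day 1 ADAMTSL3 had 31.97 to 52.89 CPM in the uteri. The day 1 ovaries had 80.39 CPM in library 3 and 2.276 to 10.84 CPM in the others. ADAMTSL4 was called higher at month 4 at 2.18, and at 0.90 without uterus library 5 it was not called. At day 1 TGFB2 was called higher, by 1.07, and TGFBR3 lower, by -1.10. Without single libraries these reached 0.91 and -0.82. At month 2 TIMP3 and EFEMP1 were called higher, by 1.41 and 4.14. MMP12 was called higher at month 6, by 7.31, with adjusted p up to 0.0709 without single libraries. It had 77.69 and 209.2 CPM in uterus libraries 1 and 2 of month 6 and at most 0.053 CPM in the others. TIMP1, an inhibitor of metalloproteinases, had 4211 CPM in ovary month 4 library 5 against at most 110.9 CPM in the other ovaries. TIMP1 and ITGB5 were called lower at month 4, by -4.60 and -1.58, and without ovary month 4 library 5 their log2 fold changes of -0.18 and -0.62 were not called. ITGB5 was also called lower at day 1, by -1.56 (adjusted p = 0.0129, and 0.00659 to 0.0844 without single libraries).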

How the data were processed

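Gene counts were used as deposited, raw and in whole numbers, in 40 libraries. The submitters' processing notes name RSEM (1.3.0), StringTie (1.3.3b), fastp (0.23.1) and HISAT2, with no order or role. No source used here gives the genome build, the strand setting or how multi-mapped reads were counted, so genes with close copies are uncertain to that extent and no coordinates are given. Of 30049 genes 28910 carried an NCBI gene number, matched to RefSeq symbols of assembly ARS1.2 for names only, and 1139 were assembled loci.

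edgeR 4.0.16 in R 4.3.3 (robust quasi-likelihood test, TMM, filterByExpr, two-sided) was fitted to the 20 libraries of an organ (19671 genes in the ovary, 18789 in the uterus) or to all 40 (20518 genes). All adjusted p-values come from that fit unless DESeq2 1.42.0 or limma 3.58.1 is named. SE was derived from the fold change and F. The test was checked on simulated counts. Those held no library that stands apart, so the check does not cover the effect of such a library. Log CPM used a prior count of 2, and ranks of a library against the others a pseudocount of 1 CPM. No pair of libraries of a group agreed within sampling noise (lowest chi-square per degree of freedom 83.5). The labels speak of individuals, and p-values measure the spread between these libraries.

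Alternatives were DESeq2, limma-voom, DESeq2-type size factors, no filter, only the groups compared, a replicate block and each library left out. Members, pathway and marker lists were chosen with earlier results of these data known. Named are all members, up to 6 called pathway genes per comparison by adjusted p, the 3 genes most like ELN, FBN2 and EMILIN3 with a mean of at least 1 CPM, and markers where a library stands apart. CST3, FABP4, MYH1, MYH7 and UPK3B had no row.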

Additional observations from a re-analysis of the deposited data

Results flagged for a closer look

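The 10 members in 8 groups gave 80 groups of 5 libraries, and in 8 of them the highest library was separated from the next by more than Dixon's critical ratio of 0.71 of the range of log2 CPM. Chance separates about 1 in 20 such groups when they are independent. Members share their libraries and are not independent, so these 8 groups cannot be weighed against that rate. In uterus month 4 library 5 these were ELN at 11470 CPM, FBN1 at 2961 CPM, LOX at 1647 CPM, FBLN5 at 753.8 CPM and MFAP4 at 176.5 CPM. In ovary day 1 library 3 it was FBN1 at 1889 CPM. In the uterus at month 6 they were MFAP4 in library 4, at 34.82 CPM against at most 16.52 CPM in the others, and EMILIN1 in library 1, at 139.5 CPM against at most 102.5 CPM.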

How the results depend on the processing

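The counts of members called changed by more than 1.5 times in these cases. From day 1 to month 6 the uterus count of 2 ran from 1 to 4 as single libraries were left out, and the ovary count of 0 from 0 to 1, and it was 1 with DESeq2. Between the organs the day 1 count of 2 ran from 1 to 3 as single libraries were left out. The month 4 count of 4 ran from 1 to 5, was 0 with limma-voom, 0 with only the groups compared, 1 with the replicate block and 1 without both libraries that stand apart. The month 6 count of 0 ran from 0 to 1 and was 1 without both libraries. The organ difference in change had 0 called and 1 with DESeq2. ELN, LOX, FBN1, FBN2, LTBP2 and FBLN5 changed sign in some comparison without uterus month 4 library 5, whose removal gave one end of each range here as single libraries were left out. From month 2 to month 4 the log2 fold change ran from -0.67 to 5.21 for ELN, -0.49 to 2.65 for LOX, -0.033 to 1.89 for FBN1, -0.78 to 2.65 for LTBP2 and -0.043 to 1.43 for FBLN5. From month 4 to month 6 it ran from -2.87 to 0.27 for LOX, -1.83 to 0.086 for FBN1, -0.76 to 0.17 for FBN2 and -3.32 to 0.11 for LTBP2. Uterus over ovary at month 4 it ran from -0.72 to 5.39 for ELN, -0.50 to 2.76 for LOX, -0.16 to 1.75 for FBN1 and -1.78 to 1.64 for LTBP2. Without both libraries these were -0.71, -0.49, -0.15 and -1.76, and LTBP2 was -0.88 with limma-voom. At month 4 DESeq2 gave no adjusted p for ELN and called FBN1, and the member called with the replicate block was ELN. Same-numbered libraries did not all deviate together (correlation over 0.1 in at most 4 of 5 pairs of any comparison), and the numbers were taken as names. The 4 pairs were of uterus and ovary at month 2, where same-numbered pairs had a mean correlation of 0.161 against -0.04 for other pairs. The replicate block joined equal numbers across ages and organs, so it could not test a goat shared by both organs at 1 age. The block moved no other count of members by over 1.5 times. Of the counts of members under all alternatives, 221 kept within 1.5 times of the value reported and 26 did not. The cause of these shifts was not tested beyond the libraries named.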
